A study of Mus musculus with 3 samples.

Results

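The genes described here are 10 markers of radial glia and neural stem cells: Nes, Vim, Fabp7, Slc1a3, Sox1, Sox2, Sox3, Sox9, Prom1 and Msi1. They were chosen by name, with earlier results of these data known. A probe was taken for a member where its accession was a RefSeq transcript of that gene. This gave 13 probes for 10 of the 20145 genes named on the array. RNA was measured on 3 one-color Agilent mouse arrays, with 1 array for each FACS-purified population. ES-Lhx6-GFP+ (ES GFP+) and ES-Lhx6-GFP- (ES GFP-) populations were the GFP positive and GFP negative gates of J14 mouse ES cells, a male line of 129S4/SvJae background, and the MGE-Lhx6-GFP+ (MGE GFP+) population came from embryos. Both ES populations carried an Lhx6-GFP BAC transgene and, per the labels, a viral 692-mCherry enhancer reporter, and both had spent 12 days in a protocol that directs ES cells toward the medial ganglionic eminence (MGE), the ventral forebrain zone that produces cortical interneurons. In that protocol 100 ng/ml of Dkk-1, a Wnt antagonist, was followed by 6 nM of SAG, an agonist of Sonic hedgehog signaling. MGE GFP+ cells were sorted without culture from the MGE of female E12.5 embryos of CD1 background that carried an Lhx6-GFP BAC. GFP in all populations reports activity of the BAC, so the gates do not separate cells by the genes described here, and the GFP- gate holds whatever cell types the aggregates contained other than GFP+ cells. Strain, sex, culture and dissociation enzyme all differ between the ES and MGE cells and cannot be told apart from the origin of the cells.

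Radial glia are the neural stem cells of the embryonic brain. They line the ventricle, extend a process toward the outer surface, divide to renew themselves and give rise to neurons, which leave the ventricular zone as they become postmitotic. Their cytoskeleton contains the intermediate filament proteins nestin (Nes) and vimentin (Vim). The brain lipid binding protein Fabp7 carries fatty acids, and Slc1a3 (GLAST) takes up glutamate. The SoxB1 factors Sox1, Sox2 and Sox3 keep neural cells in a progenitor state, while Sox9, of the SoxE group, acts in the formation and upkeep of neural stem cells and in gliogenesis. Prom1 (CD133) is a membrane glycoprotein of apical protrusions, and Msi1 (Musashi) is an RNA-binding protein of neural progenitors. Lhx6 is switched on in MGE cells as they leave the cycle, so the comparison of GFP+ with GFP- cells asks how far these stem cell genes differ between cells with and without that switch.

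The promoters of Vim, Fabp7 and Slc1a3 are shown because these genes had large differences in both comparisons with ES GFP- cells. Each window is the 250 bases before the RefSeq start of the gene in GRCm38.p6, read 5′ to 3′ on the strand of the gene, and capitals mark CCAAT or, for the other strand, ATTGG.
Vim, chr2:13574061-13574310, plus strand: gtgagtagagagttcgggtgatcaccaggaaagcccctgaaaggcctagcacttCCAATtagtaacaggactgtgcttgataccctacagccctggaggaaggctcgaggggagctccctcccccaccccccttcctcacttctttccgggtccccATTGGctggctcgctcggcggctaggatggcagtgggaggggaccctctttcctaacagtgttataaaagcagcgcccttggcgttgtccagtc
Fabp7, chr10:57784673-57784922, plus strand: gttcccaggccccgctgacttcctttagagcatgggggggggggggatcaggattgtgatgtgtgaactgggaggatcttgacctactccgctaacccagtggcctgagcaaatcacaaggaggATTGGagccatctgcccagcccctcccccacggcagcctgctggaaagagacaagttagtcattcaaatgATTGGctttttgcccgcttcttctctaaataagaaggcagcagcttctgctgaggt
Slc1a3, chr15:8710808-8711057, minus strand: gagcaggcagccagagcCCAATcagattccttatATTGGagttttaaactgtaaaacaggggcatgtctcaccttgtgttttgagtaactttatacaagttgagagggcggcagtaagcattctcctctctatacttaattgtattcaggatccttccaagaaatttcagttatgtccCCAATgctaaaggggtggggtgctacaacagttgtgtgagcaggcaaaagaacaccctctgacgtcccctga
Promoter entries were found for 7 of the 10 genes, with 8 windows, and Sox3, Sox9 and Msi1 are named only. CCAAT, searched on both strands, was found for 6 of these 7 genes and in 33.8% of all 32851 windows of this length. In Vim it lay 196 bases before the start and, on the other strand, 94 bases before. TATAAA was found for 2 of the 7, Vim (32 bases before the start) and Slc1a3 (161 bases, other strand), and in 12.4% of all windows. The SOX core AACAAT, the octamer ATGCAAAT, the RBPJ motif GTGGGAA and the NFI motif (TTGGC, then any 5 bases, then GCCAA) were found for 0 of the 7, and in 9.42%, 1.6%, 5.42% and 0.0365% of all windows. These matches describe letters in a window and are not binding sites, and the array does not measure binding.

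Each population is 1 array, so no test between populations was possible, and precision is limited by there being 3 arrays in all. The only error that could be measured was that between repeat spots of a probe within an array, whose SD was 0.14 on the log2 scale on each array. For a difference between 2 arrays this gives an SD of 0.20, and 2 SDs correspond to 1.32-fold, a yardstick for spot noise that holds no variation between cultures, embryos or hybridizations. Intensities below are background-subtracted values in scanner units. Differences are on the log2 scale after each array was set relative to its 75th percentile, which was 747 for ES GFP+, 843 for ES GFP- and 576 for MGE GFP+ cells, and folds are therefore not plain ratios of the intensities. Probes against E1A and ERCC sequences, which are not from the mouse, served as a guide to how bright a probe can be without its own transcript. This assumes that no RNA of these sequences was added to the samples, which was not checked. Their 95th percentile, the upper end of what is called the control range here, was 377, 208 and 152 on the same arrays, and their median was 69.9, 11.5 and 7.73, so dim probes read higher on the ES GFP+ array. All 13 member probes were called well above background on all 3 arrays, but so were 86, 34 and 34 of the 106 control probes. Above the control range were 9 of 13 on the ES GFP+, 12 on the ES GFP- and 9 on the MGE GFP+ array. As a check of the sort, Lhx6 itself, by the mean over 3 probes, read 22250 in ES GFP+, 4061 in ES GFP- and 29403 in MGE GFP+ cells. Its probes gave different sizes, from 0.05 to 4.04 log2 above ES GFP- cells in ES GFP+ and from 0.23 to 5.23 in MGE GFP+ cells. All 13 neuronal markers listed were above the control range on every array, ES GFP- included, so they do not check the sort.

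Compared to ES GFP- cells, ES GFP+ cells had lower levels of all 10 radial glia and neural stem genes, where 35.5% of all genes were lower. The differences ran from 1.35-fold for Sox1 to 13.6-fold for Slc1a3, with a median of 3.68-fold (-1.88 log2). All 10 were beyond 2 SDs of repeat spots, against 18.2% of the 18655 genes with a value. Sox1 was so only narrowly (-0.43 log2, the cut being 0.40), as the mean of probes of opposite sign. Of the Msi1 probes the brighter was within 2 SDs. At least 4-fold lower were 5 members (Slc1a3, Vim, Sox9, Fabp7 and Prom1), against 1.75% of all genes, and at least 2-fold lower were 7, against 6.4%. Of the 5, Prom1 was under 4-fold (-1.86 log2) with normexp background correction, and Sox9 (a bound of -0.48) with the control range as a floor. The median of all genes was itself 0.27 above 0 in this comparison, so the median member stood -2.15 from the typical gene. In MGE GFP+ cells, 9 of the 10 were also lower than in ES GFP- cells, where 52.6% of the 17025 genes with a value were lower. Here 8 were beyond 2 SDs (34.4% of all genes), 5 at least 2-fold lower (17.2% of all genes) and 4 at least 4-fold lower (6.8% of all genes), with a median of 2.57-fold (-1.36 log2; -1.31 from the median of all genes). Of the 4, Sox9 (-2.05 log2) was under 4-fold in 6 of the 9 alternatives, between -1.74 and -1.39. The ES GFP- array serves in both comparisons, which are therefore not independent. In RNA from sorted populations, fewer cells expressing a gene and less RNA per cell cannot be told apart.

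**Figure D1:**
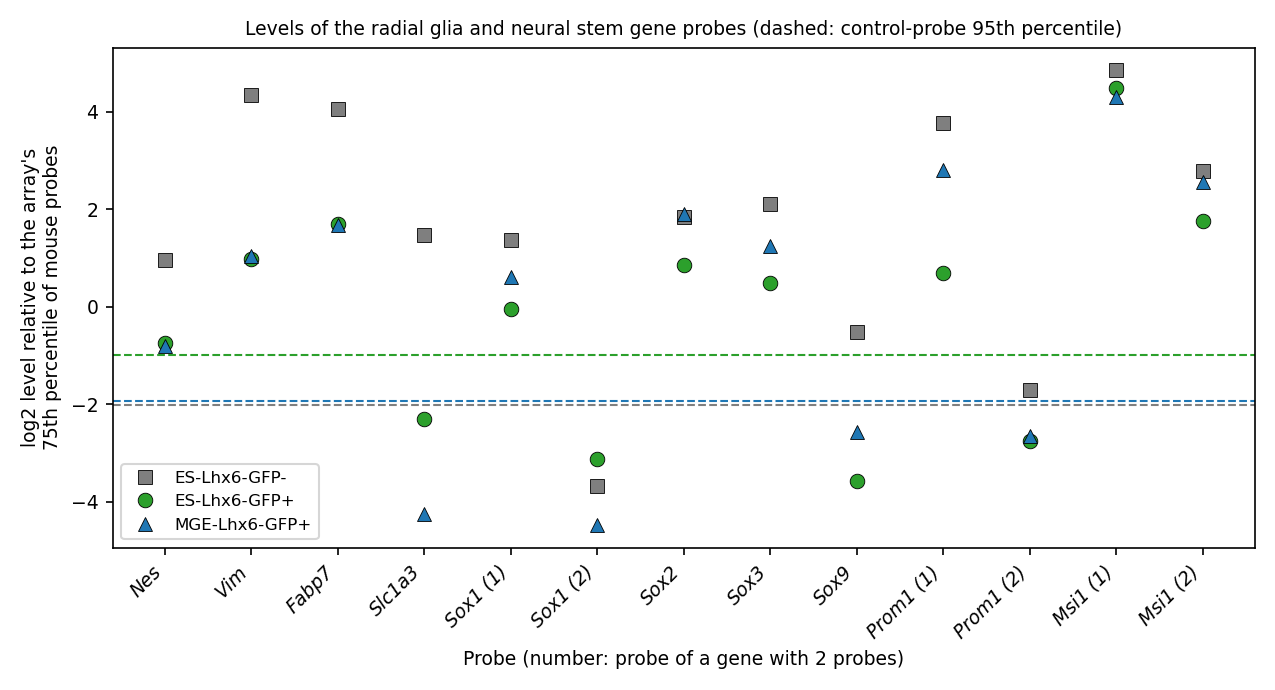
Log2 level of each of the 13 probes (y axis, relative to the 75th percentile of mouse probes on the same array) for ES GFP- (squares), ES GFP+ (circles) and MGE GFP+ cells (triangles), 1 array each, with the 95th percentile of the control probes as dashed lines in the color of each array. ES GFP- cells hold the highest level for all probes except the dim second Sox1 probe and Sox2, where MGE GFP+ cells are level with them; levels of different probes are not comparable.

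The intermediate filament genes Nes and Vim were lower in both GFP+ populations, to nearly the same extent. The Vim probe read 1473 in ES GFP+, 17267 in ES GFP- and 1181 in MGE GFP+ cells. Vim was thus 10.4-fold lower in ES GFP+ and 9.99-fold lower in MGE GFP+ than in ES GFP- cells, while the GFP+ populations differed by 0.06 log2. The Nes probe read 447, 1648 and 331 in the same order, which is 3.26-fold lower in ES GFP+ and 3.40-fold lower in MGE GFP+ than in ES GFP- cells. The difference between the GFP+ populations was -0.06 for Nes, and the sign of both small values depended on the scaling: set to the 50th percentile, Nes and Vim were 0.69 and 0.80 log2 higher in MGE GFP+ cells, with all genes shifted from a median of -0.36 to 0.40. Other genes of the intermediate filament family stood on either side of 0. Of the 11 with a value, Nes and Vim included, 4 were lower (18.2% of all genes) and 4 higher (43.8% of all genes) beyond 2 SDs in ES GFP+ than in ES GFP- cells, with a median of 0.13. Ina, the neuronal internexin, was 0.38 higher. The neurofilament genes Nefl and Nefm were at -0.68 and -0.51. Prph (0.03), Sync (0.13), Synm (0.55) and Nefh (0.68) were at or above 0. Nefh was within the control range on every array. Of the 5 Synm probes only 1 was above that range on each array, and the Synm probes differed in sign. Des, of muscle, was 2.44 higher but within the control range on every array. The 3 probes of the astrocyte filament gene Gfap were within it too, with a bound of 0.55. The 4 filament genes counted as higher were Des, Gfap, Nefh and Synm, so that count rests on dim or disagreeing probes.

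Fabp7 had the same pattern as the filament genes, whereas Slc1a3 differed between all 3 populations. The Fabp7 probe read 2419 in ES GFP+, 14150 in ES GFP- and 1841 in MGE GFP+ cells. It was 5.18-fold lower in ES GFP+ and 5.25-fold lower in MGE GFP+ than in ES GFP- cells, and the GFP+ populations differed by -0.02 (0.73 with the 50th percentile). Slc1a3 read 152, 2338 and 30.4 in the same order. This is 13.6-fold lower in ES GFP+ and 52.5-fold lower in MGE GFP+ than in ES GFP- cells. Slc1a3 stood within the control range on both GFP+ arrays, so these folds depend on how dim probes are treated: with the control range as a floor the differences were bounds of -2.46 and -3.40 log2. The 3.87-fold lower level in MGE GFP+ than in ES GFP+ cells lies wholly within the control range, and it was -0.42 log2 in the deposited normalized values. Among the other genes of each family, Slc1a2, the main glutamate transporter of mature astrocytes, was 0.79 log2 higher in ES GFP+ than in ES GFP- cells, Slc1a1 -0.68 and the neutral amino acid carrier Slc1a4 0.34. Slc1a5 was 0.21 and Slc1a6 0.47 higher, and Slc1a7 was within the control range on every array. Fabp5, also expressed in neural progenitors, was 0.41 higher and Fabp3 stood at -0.45. Fabp6 was 1.10 higher, and Fabp1, Fabp2 and Fabp4 were within the control range on every array.

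**Figure D2:**
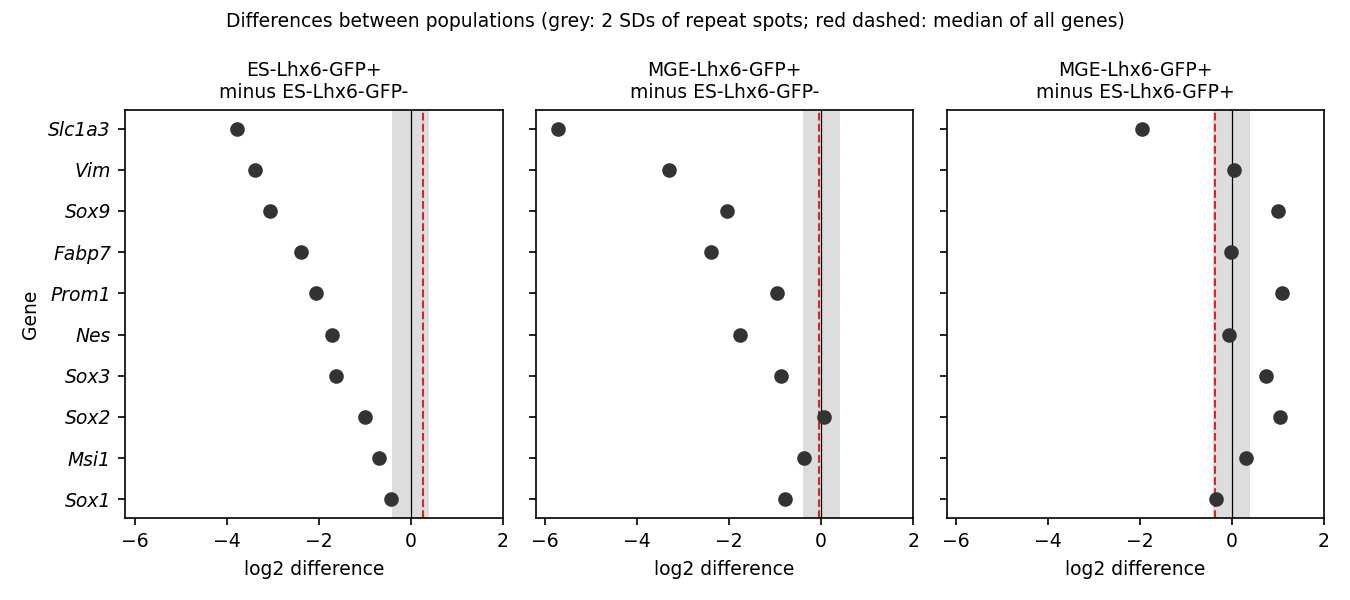
Log2 difference of each of the 10 genes (x axis) for the 3 pairs of populations, 1 array each, with 2 SDs of repeat spots in grey and the median of all genes as a red dashed line. All 10 points of the first panel and 9 of 10 in the second lie left of 0, and in the third 5 lie within the grey band.

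The SoxB1 genes Sox2 and Sox3 were lower in ES GFP+ than in ES GFP- cells and stood in between, or level with ES GFP- cells, in MGE GFP+ cells. The Sox2 probe read 1355 in ES GFP+, 3026 in ES GFP- and 2147 in MGE GFP+ cells. Sox2 was 1.98-fold lower in ES GFP+ than in ES GFP- cells and 2.06-fold higher in MGE GFP+ than in ES GFP+ cells, and the difference between MGE GFP+ and ES GFP- cells, 0.06, was within 2 SDs of repeat spots. Sox3 read 1057, 3665 and 1364. It was 3.07-fold lower in ES GFP+ and 1.83-fold lower in MGE GFP+ than in ES GFP- cells, and 1.67-fold higher in MGE GFP+ than in ES GFP+ cells. The brighter Sox1 probe read 725, 2191 and 883, the same order of populations as Sox2 and Sox3. The dimmer Sox1 probe read 86.4, 66.2 and 26.0, within the control range on every array, and pointed the other way in ES GFP+ against ES GFP- cells (0.56 against -1.42 log2). The Sox1 mean of -0.43 therefore averages disagreeing probes.

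Sox9 was measured by 10 spots per array, which gives the spread of its values. The spots read 63.5 ± 9.03 (SD, n = 10) in ES GFP+, 592 ± 24.3 (SD, n = 8 after flagged spots) in ES GFP- and 97.8 ± 4.78 (SD, n = 8) in MGE GFP+ cells. The highest spot of ES GFP+ cells was 75.7, the spots of MGE GFP+ cells lay between 88.8 and 103, and the lowest spot of ES GFP- cells was 561. The 3 arrays did not overlap, but spots on 1 array are not replicate samples. Sox9 was 8.32-fold lower in ES GFP+ and 4.13-fold lower in MGE GFP+ than in ES GFP- cells, and the second difference was -1.39 log2 in the deposited normalized values. Both GFP+ values lay within the control range of their arrays, so the 2.01-fold higher level in MGE GFP+ than in ES GFP+ cells is between values that control probes also reach, and with that range as a floor the difference of ES GFP+ from ES GFP- cells was a bound of -0.48 log2.

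**Figure D3:**
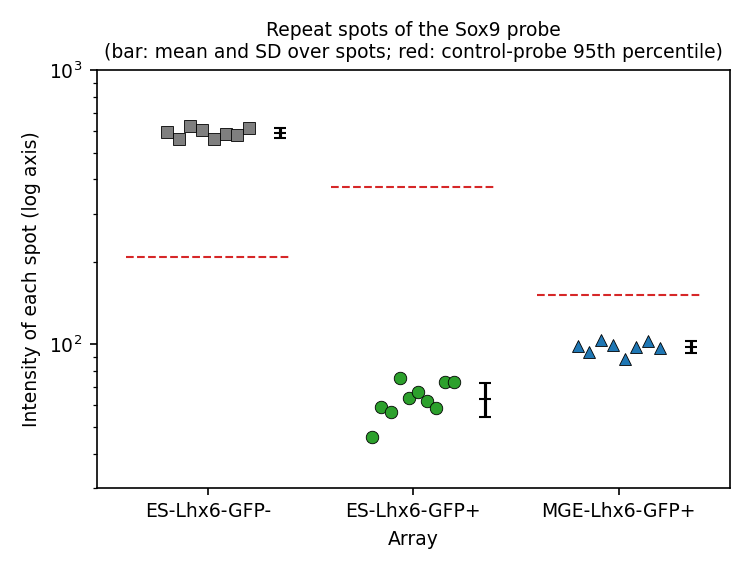
Intensity of each kept spot of the Sox9 probe (y axis, log scale, scanner units) on the 3 arrays, with the mean and SD over spots beside them and the 95th percentile of the control probes as a red dashed line. The ES GFP- spots lie between 561 and 629, above their line at 208, and the spots of both GFP+ arrays lie below theirs.

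The other Sox groups differed in direction. In the SoxE group, Sox10, of oligodendrocyte precursors and neural crest, read 162 in ES GFP+, 1422 in ES GFP- and 30.3 in MGE GFP+ cells. Both GFP+ values of Sox10 lay within the control range. Sox8 was well above background only in ES GFP- cells and was at least 3.09-fold lower in ES GFP+ and at least 4.63-fold lower in MGE GFP+ cells, but it lay within the control range on all 3 arrays. The SoxB2 genes, which act against SoxB1 factors and promote differentiation, were lower in ES GFP+ than in ES GFP- cells, with Sox14 at -1.38 and Sox21 at -1.41. In MGE GFP+ cells Sox14 was -4.97 and Sox21 -2.60 from ES GFP- cells. Sox14 lay within the control range on both GFP+ arrays, so the size of its differences depends on how dim probes are treated. The Sox21 value of -2.60 averages probes at -4.30 and -0.90. Of the SoxC genes of newborn neurons, Sox11 was 0.69 and Sox12 0.45 log2 above ES GFP- cells, beside a median of 0.27 over all genes. The Sox4 mean of 0.36 was within 2 SDs and averages probes of opposite sign (-0.34 and 1.07). In the SoxD group Sox6, required in MGE-derived interneurons, was 1.96 higher in ES GFP+ and 3.61 higher in MGE GFP+ than in ES GFP- cells, while Sox5 was -0.39 and Sox13 -0.89 in the first comparison.

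Prom1 and Msi1 were each measured by a pair of probes that gave different sizes. The Prom1 probe for NM_001163577 read 1218 in ES GFP+, 11586 in ES GFP- and 4031 in MGE GFP+ cells. The probe for NM_008935 read 112, 259 and 92.4, within the control range on both GFP+ arrays. By the first probe Prom1 was 8.42-fold lower in ES GFP+ than in ES GFP- cells and 4.29-fold higher in MGE GFP+ than in ES GFP+ cells, and by the second 2.05-fold lower and 1.07-fold higher. Both probes placed MGE GFP+ below ES GFP- cells, by 1.96-fold and 1.91-fold. Msi1, as the mean of its probes, differed by under 2-fold in every comparison. Its brighter probe read 16860, 24346 and 11365, and the other 2526, 5793 and 3422. In ES GFP+ cells the probes were -0.35 and -1.02 log2 from ES GFP- cells, of which the first is within 2 SDs of repeat spots. Between the GFP+ populations they disagreed in sign, at -0.19 and 0.81, and both placed MGE GFP+ below ES GFP- cells, at -0.55 and -0.21.

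Set against each other, the GFP+ populations had close levels of Nes, Vim and Fabp7, and MGE GFP+ cells had more Sox2, Sox3, Sox9 and Prom1 and less Slc1a3 RNA, of which Sox9 and Slc1a3 lay within the control range on both arrays. In MGE GFP+ against ES GFP+ cells 6 of the 10 were higher and 4 lower, where 36.4% of all genes were higher and 63.6% lower. Of the members 0 were at least 4-fold lower, against 13.5% of the 18580 genes with a value, and 0 at least 4-fold higher, against 0.533%. The share of all genes at least 4-fold lower was 3.49% with quantile normalization and 1.06% in the deposited values. In 3 of the 9 alternatives 1 member was at least 4-fold higher, Sox9 (2.48 log2) with quantile normalization and Prom1 (2.10) with the control range as a floor or with the brightest probe of each gene. At least 2-fold higher in MGE GFP+ cells were 3 (Prom1, Sox2 and Sox9), against 5.48% of all genes, and Slc1a3 was at least 2-fold lower, against 32.2%. Beyond 2 SDs of repeat spots 4 were higher (those 3 and Sox3; 20.2% of all genes) and 1 lower (48.6% of all genes), and the other 5 lay within them. The members' median was 0.18 where that of all genes was -0.36, so the median member stood 0.54 above the typical gene. Set to the 50th percentile the members' median was 0.93 and 9 of 10 members had a higher level in the MGE GFP+ population, so the count of members higher or lower rests on the scaling. The distance of the median member from the typical gene depended on the processing too, and was 0.22 with quantile normalization and 0.21 in the deposited values, as it was when no background was subtracted.

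A wider list of 24 other radial glia and neural stem genes was, like the 10, mostly lower in both GFP+ populations than in ES GFP- cells. In ES GFP+ against ES GFP- cells 19 of 24 were lower (18.2% of all genes) and 2 higher (43.8%) beyond 2 SDs, with 11 at least 4-fold lower (1.75%) and a median of -1.55. The lowest were Ednrb, the endothelin receptor B, at -3.15 and Zfp36l1, an mRNA decay factor, at -3.08. The highest were Nr2e1, the nuclear receptor Tlx of neural stem cells, at 2.76 and the matrix protein gene Tnc at 1.34, whose probes disagreed (-0.56 and 3.24). Nr2e1 read 297 in ES GFP+, 49.5 in ES GFP- and 774 in MGE GFP+ cells, of which only the last lay above the control range. In MGE GFP+ against ES GFP- cells 18 of 24 were lower (34.4% of all genes) and 3 higher (28.3%) beyond 2 SDs, with 13 at least 4-fold lower (6.8%) and a median of -2.04. Here Ednrb (-5.42) and Pdpn, podoplanin (-5.17), were lowest, and Nr2e1 (4.52) and Ddah1 (1.32) highest. Hes1, Notch2 and Ednrb, at least 4-fold lower in both comparisons, were within the control range on both GFP+ arrays. Of the other genes counted as at least 4-fold lower, Hmga2 was within it on the ES GFP+ array. Pax6, Tnc and Aldoc were within it on the MGE GFP+ array. The size of these differences therefore depends on how dim probes are treated, and values of the wider list under the alternatives are not given here. Between the GFP+ populations 11 were lower (48.6% of all genes) and 7 higher (20.2%) beyond 2 SDs in MGE GFP+ cells, with a median of -0.26 beside -0.36 for all genes. The members' median was 0.18, whereas that of the wider list lay close to that of all genes. The side of 0 rests on the scaling, since the median of all genes was 0.40 with the 50th percentile. Tnc was not well above background in MGE GFP+ cells and was at least 14.2-fold lower there, but its ES GFP+ level was within the control range as well. Pdpn stood at -2.96, and Nr2e1 (1.76) and Ddah1 (1.03) were highest.

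**Figure D4:**
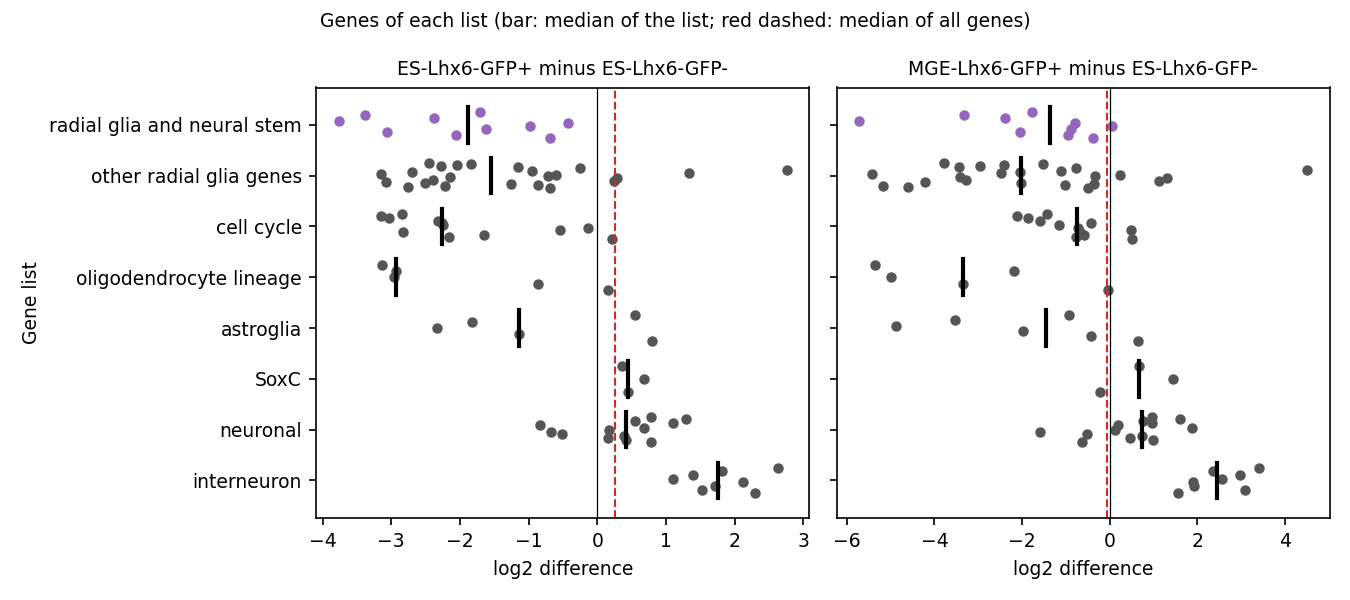
Log2 difference of each gene (points) in the 10 members and 7 other lists against ES GFP- cells, 1 array each, with the median of each list as a bar and that of all genes as a red dashed line. The medians of the members (-1.88 and -1.36), the other radial glia genes (-1.55 and -2.04), cell cycle genes (-2.26 and -0.75) and oligodendrocyte genes (-2.93 and -3.35) lie left of 0, and that of the interneuron genes (1.76 and 2.46) right of it. Single genes lie right of 0 in lists whose median lies left, such as Sox2, Nr2e1, Tyms and Cspg4.

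Markers of dividing cells and of other glial types also differed between the populations. Of 12 cell cycle genes 10 were lower (18.2% of all genes) and 0 higher (43.8%) beyond 2 SDs in ES GFP+ than in ES GFP- cells, 8 of them at least 4-fold (1.75%), with a median of -2.26. Their summed level, in units of the 75th percentile of each array, was 4.35 in ES GFP+, 16.0 in ES GFP- and 10.1 in MGE GFP+ cells, beside 18.9, 67.2 and 24.3 for the members. Cell cycle genes above the control range were 3, 11 and 7 of 12. The 5 oligodendrocyte lineage genes summed to 1.27, 7.81 and 1.32, with 1, 3 and 1 of them above the control range, and the 6 astroglia genes to 2.62, 4.90 and 1.64, with 2, 4 and 3. Gfap, a defining gene of astrocytes, was within the control range on every array. The 8 mesenchyme genes summed to 3.99, 5.96 and 0.334, with 2, 6 and 0 above the control range, and the 5 neural crest genes to 0.474, 1.95 and 0.0973, with 0, 1 and 0. The neural crest gene above the control range in ES GFP- cells was Sox10, which is also counted among the oligodendrocyte lineage genes. Of 7 pluripotency genes 2, 6 and 3 lay above the control range, and of 6 endothelial genes 2, 1 and 1. The pluripotency counts include Nanog on every array, at 230708, 251126 and 225105. Its probe was about as bright in embryonic MGE GFP+ cells and differed by under 2 SDs in each comparison, so it does not mark residual ES cells here. The summed level of the 8 interneuron genes went the other way from the members, at 135, 33.2 and 179, all above the control range. Lhx6, whose BAC reporter set the gates, is among these 8, so part of that direction follows from the sort. The part of each of these lists in the difference of the radial glia genes was not tested.

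The members' median differences had close neighbours among the 9337 other genes that lay above the control range in ES GFP- cells. The median was taken separately in each comparison. Single members ranged from -3.76 to -0.43 in ES GFP+ and from -5.72 to 0.06 in MGE GFP+ against ES GFP- cells. Nearness to the medians is therefore not likeness to any 1 member. By the distance of the pair of log2 differences from ES GFP- cells to the members' medians, the nearest were Mdk (0.073), Pltp (0.096), Dbi (0.12), Gbe1 (0.13) and Tmem47 (0.18). Mdk, the growth factor midkine, was -1.82 in ES GFP+ and -1.32 in MGE GFP+ cells, beside -1.88 and -1.36 for the members. Pltp encodes a phospholipid transfer protein, Dbi an acyl-CoA binding protein and Gbe1 the glycogen branching enzyme. A likeness over 3 arrays is a description, many genes can share it, and among so many genes some will lie near any such point.

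**Figure D5:**
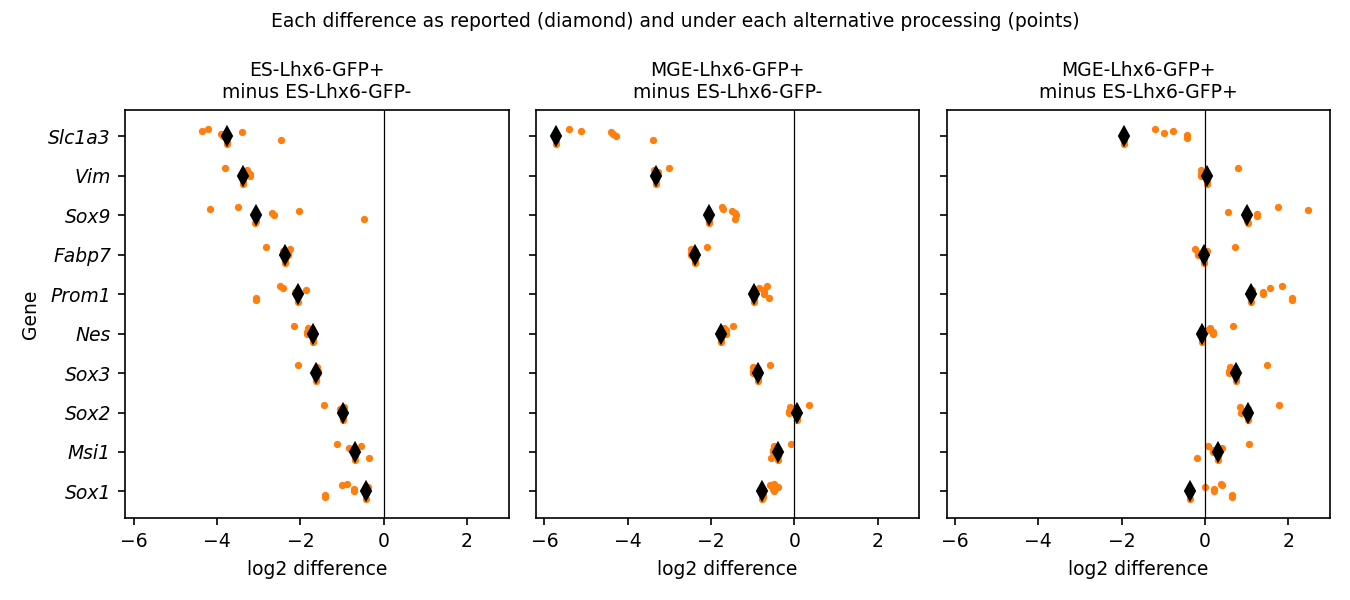
Log2 difference of each gene (x axis) as reported (diamonds) and under the 9 other ways of processing the arrays (points), for the 3 pairs of populations. Every point of the first panel lies left of 0, and points cross 0 only for Nes, Vim, Fabp7, Sox1 and Msi1 in the third and Sox2 in the second panel.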

How the data were processed

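Total RNA of the 3 sorted populations was amplified, labeled with Cy3 and hybridized to 3 Agilent arrays on 1 slide, 1 per population. The labels and the methods name different amplification kits and array formats, and the files hold 62976 spots per array. The authors extracted the scans with Agilent Feature Extraction (version 10.7.3.1 in the file headers, design build mm9), and the deposited intensity values are background-subtracted, linear and not scaled between arrays. The authors also deposited log2 values whose making is not stated there. They lay within 0.211 of quantile-normalized log2 median intensities without background subtraction, and were used as an alternative.

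Log2 intensity minus the 75th percentile of the array was computed over 55681 mouse probes, with 98 to 137 flagged spots per array left out and 0 saturated. Repeat spots, then probes of a gene, were averaged. A probe with under a share of 0.5 of its spots well above background was raised to the lowest detected value on its array, so that its difference is a bound, and a gene at that floor on both arrays had no value. Well above background were 90.6%, 80.3% and 77.1% of probes on the ES GFP+, ES GFP- and MGE GFP+ arrays. RefSeq (GRCm38.p6) accessions named 26582 probes for 20145 genes. The spread between repeat spots was taken from probes with at least 5 spots, and the control range from the 95th percentile of 106 E1A and ERCC probes. With 1 array per population no test was run, and differences were counted at 4-fold, at 2-fold and at 2 SDs of repeat spots, beside the same count over all genes.

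The members and lists were chosen with earlier results of these data known. Named are all members, relatives in the same family list, the 2 lowest and 2 highest of the other radial glia genes in each comparison, and the 5 genes nearest the members' medians. Genes of the marker lists named beside these were added for their role. Calculations used Python 3.11.15 (numpy 2.4.6, pandas 2.3.3) and, for the normexp alternative on median spot and background intensities, R 4.3.3 with limma 3.58.1, and were tested on simulated data.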

Additional observations from a re-analysis of the deposited data

How the results depend on the processing

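Of 9 alternatives, none reversed a difference that was beyond 2 SDs of repeat spots. The members at least 4-fold lower in ES GFP+ than in ES GFP- cells numbered 5 and ranged from 4 (normexp background correction, or a floor at the control range) to 7 (50th percentile). Those in MGE GFP+ against ES GFP- cells ranged from 3 to 4, and in MGE GFP+ against ES GFP+ cells there were 0 in all. Of 30 member differences 24 kept their sign in every alternative. The exceptions were Nes, Vim, Fabp7, Sox1 and Msi1 between the GFP+ populations and Sox2 between MGE GFP+ and ES GFP- cells, all within 2 SDs as reported. Sox9 in ES GFP+ against ES GFP- cells varied most, from -4.18 (quantile normalization) to -0.48 (control range as a floor). The second value is a bound, so Sox9 was at least that much lower. With that floor 8 members had a value between the GFP+ populations. The split over all genes moved with the scaling: at least 4-fold lower and higher in ES GFP+ than in ES GFP- cells were 1.75% and 8.27%, 3.13% and 4.70% with the 50th percentile, and 5.06% and 2.90% with quantile normalization. In MGE GFP+ against ES GFP+ cells they were 13.5% and 0.533%, 3.49% and 3.50% with quantile normalization, and 1.06% and 0.446% in the deposited values. No paired analysis was possible because each group has 1 array, and for the same reason no array could be left out. A slide block was not run, since all 3 arrays share 1 slide, nor was naming probes by a gene name column, which the files used here do not hold. Signal over background limits Slc1a3, Sox9 and the dimmer Sox1 and Prom1 probes, whose GFP+ intensities lay within the control range.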
